A study of Mus musculus with 4 samples.

Results

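The collagen gene family was represented by 44 genes among the 19938 genes measured in testes of mice without the luteinizing hormone receptor. Members were taken by symbol: every probe set whose only annotated gene had the form Col, number, a, number. This gave 46 probe sets, none of them shared with another gene, and each gene was read from its brightest probe set. By structure, 11 genes encode fibrillar chains, 6 the type IV chains of basement membranes, 9 FACIT chains (fibril-associated collagens with interrupted triple helices) and 18 other types. Total RNA came from testes of male mice, 2 samples of Lhcgr KO (genotype Lhcgr KO) and 2 of control WT (genotype WT). All animals in both groups had received busulfan at 44 mg/kg and were sacrificed 4 weeks later. Busulfan is an alkylating drug that depletes germ cells, and its effect was not tested here because all 4 samples came from treated mice. The labels give no strain, age or knockout allele and leave it unstated whether replicates were separate animals, so the spread behind each p-value may be technical. Each sample was hybridised to 1 Affymetrix whole-transcript array, and the small number of arrays limited the precision of every value.

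Collagens are secreted proteins built from 3 chains wound into a triple helix. Fibrillar types make the rope-like fibrils of connective tissue, FACITs sit on the surface of those fibrils, and type IV chains form the sheet-like network of basement membranes. In the testis, a basement membrane and a collagen-containing wall of peritubular cells surround each seminiferous tubule, while Leydig cells, macrophages and vessels lie in the interstitial tissue between tubules. The Lhcgr product receives luteinizing hormone on Leydig cells, which make testosterone in response.

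Across the whole series, array medians lay between 198 and 215 intensity units, and 618 of 19938 genes (3.1%) passed the test, 192 higher and 426 lower in Lhcgr KO. These counts were 2 and 16 without Lhcgr KO replicate 1, and 2 and 21 without Lhcgr KO replicate 2. All 8 adult Leydig cell markers were lower on both Lhcgr KO arrays, with a summed intensity of 3040 to 3808 in Lhcgr KO against 13329 to 24210 in control WT. Of these, 6 passed the test, among them Hsd3b6, a steroid-forming enzyme, at 5.75 and 5.17 log2 units in Lhcgr KO against 12.21 and 12.32 in control WT. All 8 macrophage markers were lower on both Lhcgr KO arrays too and 5 passed, with sums of 2849 to 3226 in Lhcgr KO against 5576 to 6846 in control WT. The sum over 12 epididymal and rete testis markers was 1362 to 1403 in Lhcgr KO, against 1408 in control WT replicate 1 and 8450 in control WT replicate 2, which stood apart. Sums over 8 peritubular myoid and smooth muscle markers were 7127 to 8865 in Lhcgr KO and 6745 to 6780 in control WT, but the markers were split, with 3 above and 3 below control WT on both Lhcgr KO arrays, a median log2 fold change of -0.02 and none past the test. Sums over 7 fibroblast and stromal markers were 6692 to 7268 in Lhcgr KO and 5991 to 6398 in control WT. Among them 1 lay above and 1 below control WT on both Lhcgr KO arrays, with a median of 0.06 and none past the test. Those over 10 Sertoli cell markers were 32975 to 33744 in Lhcgr KO and 31307 to 33351 in control WT. In the Sertoli list 6 lay above and 1 below on both Lhcgr KO arrays, with a median of 0.09. Amh alone passed there, with a log2 fold change of 0.80 (limma adjusted p = 0.0398). Endothelial markers (8 genes) summed to 2536 to 2614 in Lhcgr KO and 2320 to 2386 in control WT, with 1 marker above and 3 below control WT on both Lhcgr KO arrays, a median of -0.04 and none past the test. Germ cell markers (10 genes) summed to 1848 to 2100 in Lhcgr KO and 1564 to 2512 in control WT. Among them 2 lay above and 1 below control WT on both Lhcgr KO arrays, with a median of 0.21 and none past the test. Over all genes, 36.8% lay above and 22.4% below control WT on both Lhcgr KO arrays. These shares are the background to each marker count in this paragraph. The part of these cell type differences in the collagen values below was not tested. In whole tissue, fewer cells of a type and less RNA per cell cannot be told apart. The targeted gene is not analysed here.

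In Lhcgr KO testes 2 of the 44 collagen genes rose: Col14a1, a FACIT chain, and Col15a1, which lies in the zone next to basement membranes. None fell. The test was limma's moderated test on log2 intensity with a Benjamini-Hochberg adjusted p below 0.05 over all genes, and it called 0.963% of all genes higher and 2.14% lower. At an unadjusted p below 0.05, 11 collagen genes were higher and 0 lower, while 12.9% and 9.78% of all genes were. The log2 fold change, Lhcgr KO over control WT, was above 0 for 41 of 44 collagen genes, and for 38 after quantile normalization and 39 after centring each array on its median. Of all genes, 60.6% had a value above 0, with 54.5% after quantile normalization and 51.0% after median centring. The median log2 fold change was 0.23 over the collagens and 0.07 over all genes, with values from -0.15 to 0.80 among the collagens and standard errors from 0.11 to 0.22. Both Lhcgr KO arrays lay above both control WT arrays for 30 collagen genes and below them for 0, and the ranges overlapped for 14. Of all genes, 36.8% lay above and 22.4% below in this way.

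**Figure D1:**
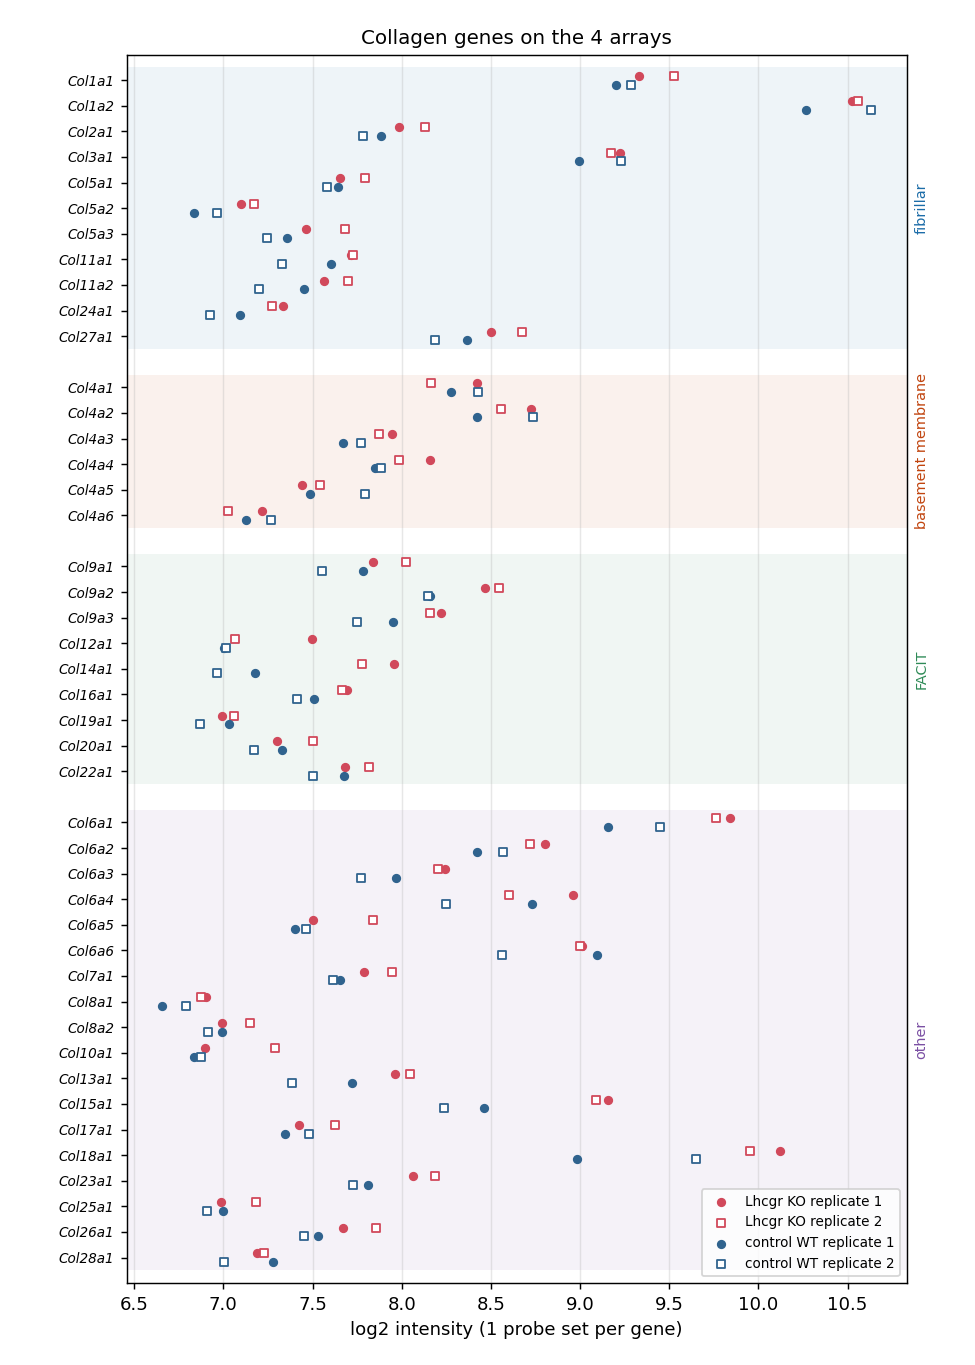
Log2 intensity of each of the 44 collagen genes on the 4 arrays, grouped by class, with Lhcgr KO replicates in red above control WT replicates in blue. Both red points lie to the right of both blue points for 30 genes, with the clearest separation for Col14a1 and Col15a1; positions of different genes along the axis are not comparable, since each probe set has its own response.

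Weakly expressed genes as a set were shifted upward in Lhcgr KO, and the part of this shift in the collagen values was not tested. No collagen gene was among the lowest 25% of genes by mean signal, so all 44 would pass a filter at that level. Between 25% and 50% of the signal ranking, all genes had a median log2 fold change of 0.14 and the 26 collagen genes there one of 0.22. Between 50% and 75% the medians were -0.03 for all genes and 0.29 for 13 collagen genes. Among the highest 25% they were -0.05 for all genes and 0.19 for 5 collagen genes. In these bands in turn, 71.4%, 45.7% and 41.4% of all genes had values above 0, beside 24, 12 and 5 collagens. Both Lhcgr KO arrays lay above both control WT arrays for 46.9%, 26.6% and 22.4% of all genes, beside 18, 9 and 3 collagens. The collagen median lay above that of all genes in each band that held collagens, by less between 25% and 50% than between 50% and 75%. These medians and shares are descriptions, and no test of the family was made.

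**Figure D2:**
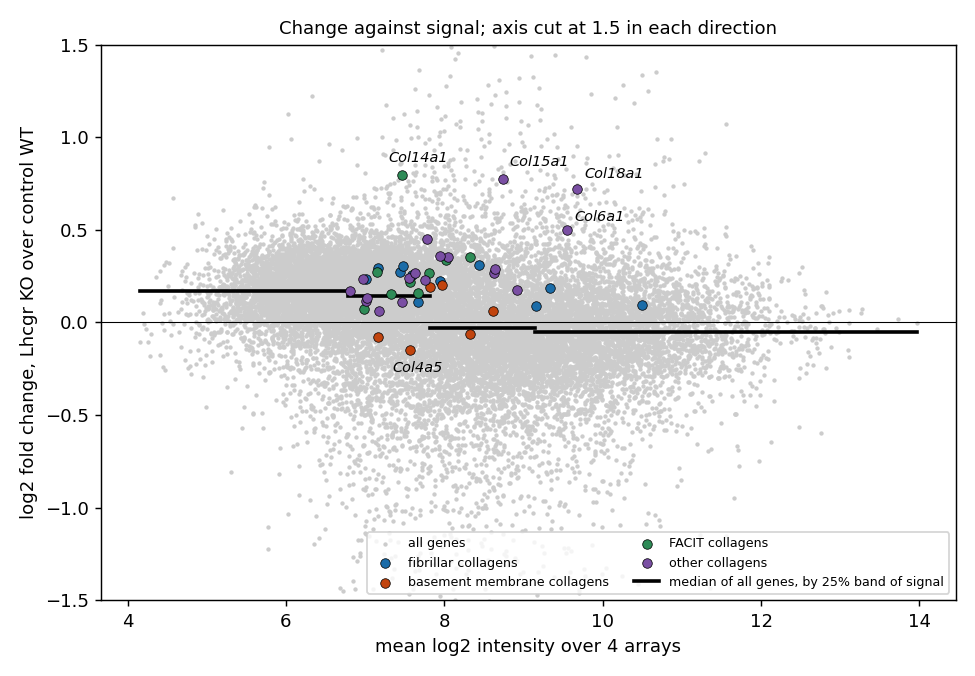
Log2 fold change, Lhcgr KO over control WT, against mean log2 intensity for all 19938 genes (grey) and the collagen genes by class (colours), with the vertical axis cut at 1.5 on either side. Black lines mark the median of all genes in each 25% band of signal, which is above 0 in the lower bands and just below 0 in the upper ones, while Col14a1, Col15a1 and Col18a1 lie well above it.

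Multiplexins, the proteoglycan collagens that link basement membranes to the matrix beside them, held the clearest rise. Col15a1 (probe set 10504775) measured 9.16 and 9.09 log2 intensity units in Lhcgr KO against 8.46 and 8.24 in control WT. The groups did not overlap, and the gap between them was larger than the gap within either. Its mean was 9.12 ± 0.05 in Lhcgr KO and 8.35 ± 0.16 in control WT (SD, n = 2 each), a 1.71-fold rise with a 95% confidence interval of 1.39 to 2.11 (log2 fold change 0.78 ± 0.13 SE, limma adjusted p = 0.0294). The call was lost without Lhcgr KO replicate 1 (adjusted p = 0.187), Lhcgr KO replicate 2 (0.195) or control WT replicate 2 (0.0632), while the log2 fold change stayed between 0.66 and 0.89. The related Col18a1, whose C-terminal fragment is endostatin, measured 10.12 and 9.95 in Lhcgr KO against 8.98 and 9.65 in control WT. All Lhcgr KO values were higher, but the control WT arrays differed from each other by nearly as much as the groups did. Its log2 fold change was 0.72 ± 0.22 (adjusted p = 0.138). Without control WT replicate 2, the array high in epididymal markers, it passed at 1.05 (adjusted p = 0.00984), and without replicate 1 it was 0.39 (adjusted p = 0.223).

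The 250 bases before the annotated starts are given for the multiplexins because their changes over all 4 arrays were similar in size. Col1a2 is given beside them as a fibrillar gene, and neither it nor Col18a1 passed the test. The sequences come from RefSeq on GRCm38.p6, a build other than that of the arrays. Capitals mark matches on either strand to TATAAA (the TATA box), CCAAT (the CCAAT box), GGGCGG (the GC box) and AGAACA (one arm of androgen and glucocorticoid response elements).
Col15a1, chr4:47207762-47208011, plus strand: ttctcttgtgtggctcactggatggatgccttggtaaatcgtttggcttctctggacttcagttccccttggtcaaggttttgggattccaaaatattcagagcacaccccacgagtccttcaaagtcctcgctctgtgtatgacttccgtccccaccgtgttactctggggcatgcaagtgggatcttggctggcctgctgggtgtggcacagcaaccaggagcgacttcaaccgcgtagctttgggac
Col18a1, upstream start, chr10:77166531-77166780, minus strand: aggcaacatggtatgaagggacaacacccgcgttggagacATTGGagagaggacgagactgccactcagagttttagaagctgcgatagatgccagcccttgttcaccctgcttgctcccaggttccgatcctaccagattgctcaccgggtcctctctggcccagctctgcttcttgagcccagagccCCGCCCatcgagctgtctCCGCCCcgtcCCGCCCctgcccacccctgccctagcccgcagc
Col18a1, downstream start, chr10:77113706-77113955, minus strand: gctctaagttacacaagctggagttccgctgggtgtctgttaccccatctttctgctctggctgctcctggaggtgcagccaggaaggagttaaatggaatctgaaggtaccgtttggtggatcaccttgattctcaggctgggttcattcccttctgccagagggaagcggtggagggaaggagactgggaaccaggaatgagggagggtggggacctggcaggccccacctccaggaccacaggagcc
Col1a2, chr6:4505368-4505617, plus strand: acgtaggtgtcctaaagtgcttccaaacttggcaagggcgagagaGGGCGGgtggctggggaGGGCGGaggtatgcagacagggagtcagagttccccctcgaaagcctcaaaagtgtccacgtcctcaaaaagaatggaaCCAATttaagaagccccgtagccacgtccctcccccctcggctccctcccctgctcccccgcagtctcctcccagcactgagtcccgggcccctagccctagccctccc
The Col15a1 window held none of the 4 motifs. The upstream Col18a1 window held 3 GC boxes and 1 CCAAT box, the downstream one none, and Col1a2 had 2 GC boxes and 1 CCAAT box. The multiplexin genes shared none of these motifs in all their windows. Such windows were found for 35 of the 44 collagen genes, 38 windows in all, and Col14a1 was not among these genes. GGGCGG was in 22 of the 38, against 32.7% of all 32851 windows, and CCAAT in 13 of 38, against 33.8%. TATAAA was in 5, against 12.4%, and AGAACA in 2, those of Col9a1 and Col20a1, against 16.1%. These matches are letters in a window and not measured binding sites.

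FACIT genes held the other rise. Col14a1 (probe set 10424140), whose product binds the surface of type I collagen fibrils, measured 7.96 and 7.78 log2 intensity units in Lhcgr KO against 7.18 and 6.96 in control WT. The groups were clearly apart. Its mean was 7.87 ± 0.13 in Lhcgr KO and 7.07 ± 0.15 in control WT (SD, n = 2 each), a 1.74-fold rise with a 95% confidence interval of 1.40 to 2.16 (log2 fold change 0.80 ± 0.13 SE, limma adjusted p = 0.0312). As for Col15a1, the call was lost without Lhcgr KO replicate 1 (adjusted p = 0.193), Lhcgr KO replicate 2 (0.170) or control WT replicate 2 (0.0639), with changes of 0.71, 0.89 and 0.69.

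The other 8 FACIT genes did not pass the test, and all 9 had positive changes. Of all genes 60.6% had positive changes, and 71.4% of those between 25% and 50% of the signal ranking. The class median was 0.26 (0.15 after quantile normalization and 0.17 without control WT replicate 2). Type IX chains coat type II fibrils in cartilage. Col9a2 measured 8.47 and 8.54 in Lhcgr KO against 8.16 and 8.15 in control WT, with close replicates and no overlap (0.35 ± 0.11, adjusted p = 0.144). Col9a3 measured 8.22 and 8.16 in Lhcgr KO against 7.95 and 7.75 in control WT (0.34 ± 0.12, adjusted p = 0.184). Col9a1, Col12a1, Col16a1, Col19a1, Col20a1 and Col22a1 had changes between 0.07 and 0.27. Both Lhcgr KO arrays were above both control WT arrays for 7 of the 9 genes, against 36.8% of all genes. Between 25% and 50% of the signal ranking, where 7 of the 9 lay, the share of all genes was 46.9%.

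None of the 11 fibrillar genes passed the test, and their adjusted p-values started at 0.212. All 11 had positive changes, from 0.09 to 0.31 with a median of 0.24. Positive changes were found in 60.6% of all genes, and in 71.4% between 25% and 50% of the signal ranking. Both Lhcgr KO arrays lay above both control WT arrays for 9, against 36.8% of all genes. That share was 46.9% between 25% and 50% of the signal ranking, where 6 of the 11 lay. Col1a1 and Col1a2 encode the chains of type I collagen, the main fibril protein of most connective tissue. Col1a1 measured 9.33 and 9.53 in Lhcgr KO against 9.20 and 9.28 in control WT, a narrow separation. Col1a2 measured 10.52 and 10.56 in Lhcgr KO against 10.27 and 10.63 in control WT, so that control WT held both the lowest and the highest value. Their log2 fold changes were 0.19 ± 0.12 (adjusted p = 0.372) for Col1a1 and 0.09 ± 0.15 (adjusted p = 0.715) for Col1a2. Col3a1, the type III chain of elastic tissues, measured 9.23 and 9.18 in Lhcgr KO against 8.99 and 9.23 in control WT (0.09 ± 0.13, adjusted p = 0.676). The 95% confidence intervals of these 3 genes ran from 0.83-fold to 1.40-fold.

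Among the minor fibrillar chains, Col27a1, known from cartilage, measured 8.50 and 8.68 in Lhcgr KO against 8.36 and 8.19 in control WT (0.31 ± 0.13, adjusted p = 0.216). Col11a2, which helps to set the width of cartilage fibrils, measured 7.56 and 7.70 in Lhcgr KO against 7.45 and 7.20 in control WT (0.30 ± 0.13, adjusted p = 0.235). Col24a1 measured 7.33 and 7.27 in Lhcgr KO against 7.09 and 6.93 in control WT (0.29 ± 0.12, adjusted p = 0.212). In these 3 genes both Lhcgr KO arrays were higher, as for 36.8% of all genes, by margins near those between replicates. Col2a1, Col5a1, Col5a2, Col5a3 and Col11a1 had changes between 0.11 and 0.27. Of 8 measured cartilage and bone markers, none passed the test, and their median change was 0.08.

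Type IV genes, which build the network of basement membranes, had the class median nearest to 0. The 6 chains had a median log2 fold change of 0.00067, with 3 values above and 3 below 0, where 60.6% of all genes were above 0. Their adjusted p-values started at 0.328. Col4a1 and Col4a2, the chains of most basement membranes, lie head to head on chromosome 8 in the mouse. Col4a1 measured 8.42 and 8.17 in Lhcgr KO against 8.28 and 8.43 in control WT. Col4a2 measured 8.73 and 8.56 in Lhcgr KO against 8.42 and 8.74 in control WT. The groups overlapped in both genes, and replicate 1 was the higher Lhcgr KO array and replicate 2 the higher control WT array in both. Their changes were -0.06 ± 0.14 (adjusted p = 0.795) for Col4a1 and 0.06 ± 0.15 (adjusted p = 0.805) for Col4a2.

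Col4a3 and Col4a4, neighbours on chromosome 1, encode chains of specialised basement membranes such as that of the kidney glomerulus. Col4a3 measured 7.95 and 7.87 in Lhcgr KO against 7.67 and 7.77 in control WT (0.19 ± 0.11, adjusted p = 0.334). Col4a4 measured 8.16 and 7.98 in Lhcgr KO against 7.85 and 7.88 in control WT (0.20 ± 0.12, adjusted p = 0.328). These were the type IV genes with both Lhcgr KO arrays above both control WT arrays, 2 of 6 against 36.8% of all genes. Col4a5 and Col4a6, neighbours on the X chromosome, overlapped between groups. Col4a5 measured 7.44 and 7.54 in Lhcgr KO against 7.49 and 7.80 in control WT (-0.15 ± 0.14, adjusted p = 0.515). Col4a6 measured 7.22 and 7.03 in Lhcgr KO against 7.13 and 7.27 in control WT (-0.08 ± 0.13, adjusted p = 0.721). Over the 6 genes the 95% confidence intervals ran from -0.48 to 0.48 on the log2 scale. The class median was 0.02 after quantile normalization and -0.06 after median centring, 0.12 without control WT replicate 2 and -0.12 without replicate 1. Whether type IV genes differ from the other classes was not tested.

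**Figure D3:**
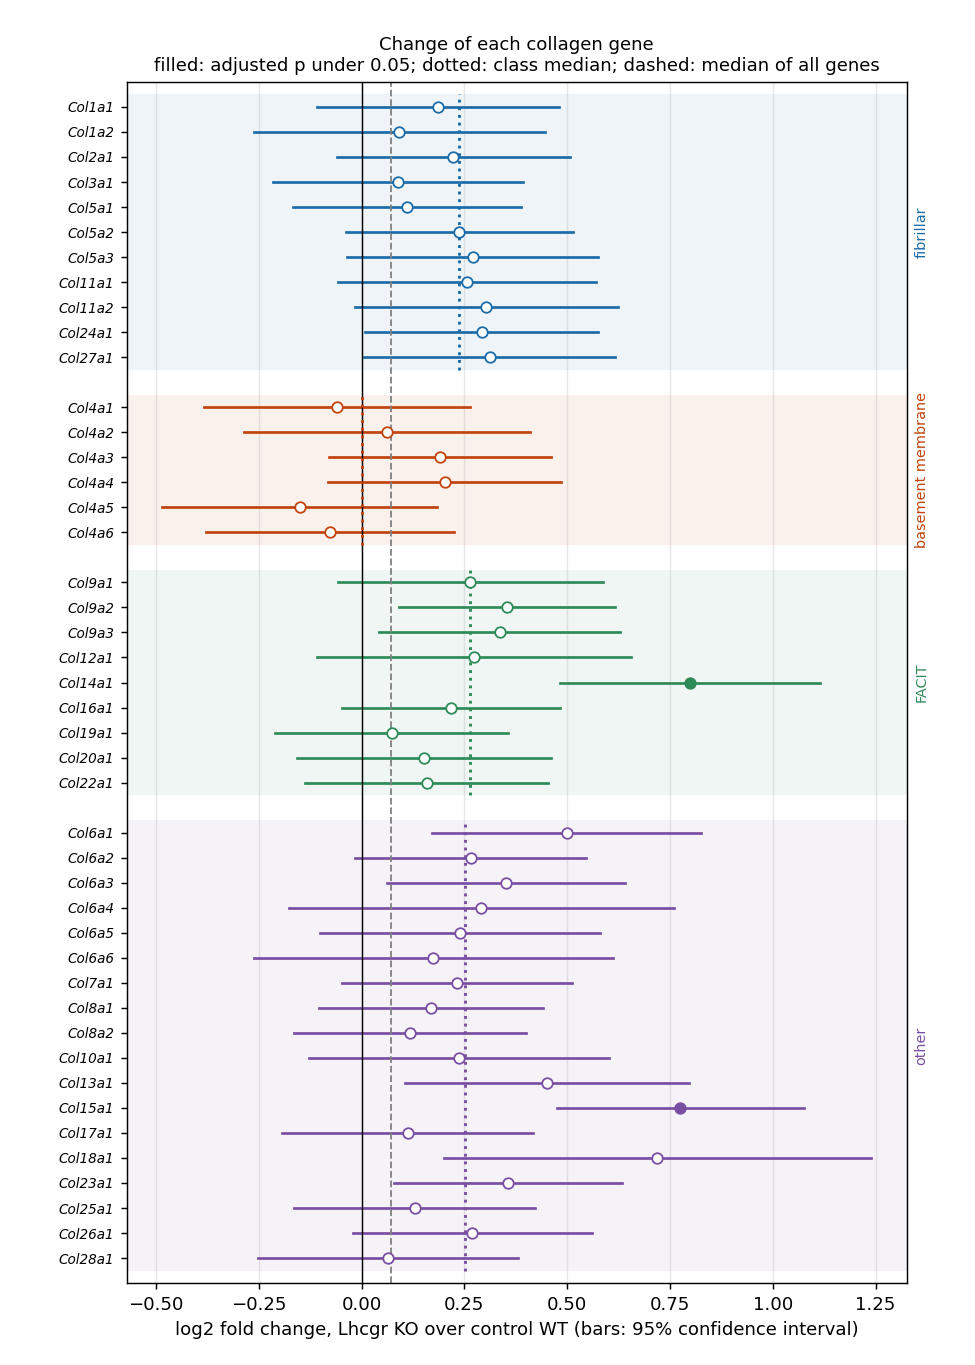
Log2 fold change, Lhcgr KO over control WT, of each collagen gene with its 95% confidence interval (bars), filled where the adjusted p is below 0.05. Col14a1 and Col15a1 are the filled points, and the dotted class medians lie at 0.24 for fibrillar, near 0 for basement membrane, 0.26 for FACIT and 0.25 for other collagens, beside 0.07 for all genes (dashed line).

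Type VI genes encode the chains of the beaded filaments that anchor cells to the surrounding matrix. All 6 had positive changes, against 60.6% of all genes, and none passed the test, with a median of 0.28. For Col6a5, however, a second, weaker probe set had -0.25 ± 0.11 where the one used had 0.24 ± 0.14. Col6a1 measured 9.84 and 9.76 in Lhcgr KO against 9.16 and 9.45 in control WT, with both Lhcgr KO arrays higher (0.50 ± 0.14, adjusted p = 0.114). Its neighbour Col6a2 measured 8.80 and 8.72 in Lhcgr KO against 8.42 and 8.57 in control WT (0.27 ± 0.12, adjusted p = 0.236). Col6a3, the third chain of the standard trimer, measured 8.24 and 8.20 in Lhcgr KO against 7.97 and 7.77 in control WT (0.35 ± 0.12, adjusted p = 0.170). The 3 standard chains had changes between 0.27 and 0.50, with both Lhcgr KO arrays above both control WT arrays, as for 36.8% of all genes. Col6a4, Col6a5 and Col6a6, chains that can take the place of the third one, lie next to each other on chromosome 9. Col6a4 measured 8.96 and 8.60 in Lhcgr KO against 8.73 and 8.25 in control WT, with overlap (0.29 ± 0.20, adjusted p = 0.382). Col6a6 measured 9.01 and 9.00 in Lhcgr KO against 9.10 and 8.56 in control WT, where replicate 1 was the highest array (0.17 ± 0.18, adjusted p = 0.559).

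Transmembrane collagens had 4 positive changes and none past the test, where 60.6% of all genes had positive changes. That share was 71.4% between 25% and 50% of the signal ranking, where 3 of the 4 lay. Col13a1, found at cell adhesions and neuromuscular junctions, measured 7.96 and 8.05 in Lhcgr KO against 7.72 and 7.38 in control WT (0.45 ± 0.14, adjusted p = 0.151). Col23a1 measured 8.06 and 8.19 in Lhcgr KO against 7.81 and 7.72 in control WT (0.36 ± 0.12, adjusted p = 0.155). Both genes were higher on each Lhcgr KO array, as were 36.8% of all genes. Col25a1 overlapped between groups (0.13 ± 0.12, adjusted p = 0.521), and so did Col17a1, a collagen of hemidesmosomes, with 0.11. The short-chain genes Col8a1, Col8a2 and Col10a1 had changes of 0.17, 0.12 and 0.24, and none passed. Col7a1, which makes the anchoring fibrils of skin, had one of 0.23 ± 0.12 (adjusted p = 0.278). Col26a1, known from testis and ovary, measured 7.67 and 7.85 in Lhcgr KO against 7.53 and 7.45 in control WT (0.27 ± 0.12, adjusted p = 0.242). Col28a1, a collagen of peripheral nerve, overlapped between groups (0.06 ± 0.13, adjusted p = 0.776).

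Of 17 measured enzymes and chaperones that modify procollagen in the secretory pathway, none passed the test in either direction. At an unadjusted p below 0.05, 6 of the 17 were lower and 0 higher, against 9.78% and 12.9% of all genes. Both Lhcgr KO arrays lay below control WT for the same 6, against 22.4% of all genes. Crtap, part of the complex that hydroxylates collagen prolines, measured 9.63 and 9.38 in Lhcgr KO against 10.08 and 10.42 in control WT (-0.74 ± 0.16, adjusted p = 0.0665). P4ha2, a catalytic subunit of collagen prolyl hydroxylase, measured 6.78 and 6.50 in Lhcgr KO against 7.43 and 7.17 in control WT (-0.66 ± 0.15, adjusted p = 0.0771). Both lay below control WT on each Lhcgr KO array. After centring each array on its median Crtap and P4ha2 passed, with adjusted p of 0.0469 and 0.0405, P4ha2 also after quantile normalization (0.0445) and Crtap also without control WT replicate 1 (0.0179). The list had a median of 0.13, which was -0.02 without control WT replicate 1 and 0.04 without Lhcgr KO replicate 1.

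Among 11 genes of procollagen processing and crosslinking, 1 passed the test as higher and none as lower, against 0.963% and 2.14% of all genes. Both Lhcgr KO arrays lay above control WT for 6 of the 11 and below for 0, against 36.8% and 22.4%. Of these 11 genes, 4 were higher and 0 lower at an unadjusted p below 0.05, against 12.9% and 9.78% of all genes. The list median was 0.18 and ran from 0.08 to 0.27 when 1 array was left out. Bmp1, which cleaves the C-propeptide from fibrillar procollagens, measured 9.85 and 9.54 in Lhcgr KO against 9.01 and 8.90 in control WT (0.73 ± 0.14, adjusted p = 0.0479). Its groups did not overlap. The call was lost without Lhcgr KO replicate 1 (0.58, adjusted p = 0.198), Lhcgr KO replicate 2 (0.89, 0.144) or control WT replicate 2 (0.68, 0.0955).

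Of 13 collagen receptors, 1 passed the test as higher and none as lower, against 0.963% and 2.14% of all genes. Both Lhcgr KO arrays lay above control WT for 7 of the 13 and below for 5, against 36.8% and 22.4%. At an unadjusted p below 0.05, 5 were higher and 1 lower, against 12.9% and 9.78%. The list median was 0.24. Antxr1, an anthrax toxin receptor that binds type VI collagen, measured 10.97 and 10.81 in Lhcgr KO against 9.64 and 9.58 in control WT. The groups lay far apart compared with their replicates, with a log2 fold change of 1.28 ± 0.12 (adjusted p = 0.00529). It no longer passed without either Lhcgr KO array (1.20, adjusted p = 0.0847 without replicate 1, and 1.36, adjusted p = 0.0764 without replicate 2). Mrc1, a mannose receptor also counted among the macrophage markers, was the lowest of this list at -0.67 ± 0.17 (adjusted p = 0.105).

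Of 19 proteoglycans and glycoproteins that bind collagen fibrils, 1 passed the test as higher and none as lower, against 0.963% and 2.14% of all genes. Both Lhcgr KO arrays lay above control WT for 6 of the 19 and below for 7, against 36.8% and 22.4%. At an unadjusted p below 0.05, 5 were higher and 4 lower, against 12.9% and 9.78%. The list median was 0.08, with -0.03 without Lhcgr KO replicate 1 and 0.13 without Lhcgr KO replicate 2. Thbs2, a thrombospondin whose loss disturbs collagen fibrils in mice, measured 8.85 and 8.76 in Lhcgr KO against 7.49 and 6.97 in control WT (1.57 ± 0.18, adjusted p = 0.0104). It lay well above control WT on both Lhcgr KO arrays, but did not pass without Lhcgr KO replicate 1 (1.53, adjusted p = 0.158) or replicate 2 (1.62, adjusted p = 0.145).

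Basement membrane partners of type IV collagen, mainly laminins and nidogens, had a median of 0.34 over 19 genes, and none passed the test. Of the 19, 8 were higher and 0 lower at an unadjusted p below 0.05, against 12.9% and 9.78% of all genes. The median was 0.18 without Lhcgr KO replicate 1 and 0.40 without Lhcgr KO replicate 2. Both Lhcgr KO arrays were above both control WT arrays for 12 of them and below for 4, against 36.8% and 22.4% of all genes. Smoc2, a matrix protein of the SPARC family, measured 10.54 and 10.39 in Lhcgr KO against 9.76 and 8.71 in control WT. All Lhcgr KO values were higher, but the control WT arrays were 1.06 apart (1.23 ± 0.31, adjusted p = 0.0986). Without control WT replicate 1 it passed at 1.76 (adjusted p = 0.000361), and without control WT replicate 2 it was 0.71 (adjusted p = 0.0569). Lama2, the laminin alpha 2 chain, measured 11.31 and 10.98 in Lhcgr KO against 10.66 and 10.57 in control WT (0.53 ± 0.14, adjusted p = 0.112).

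**Figure D4:**
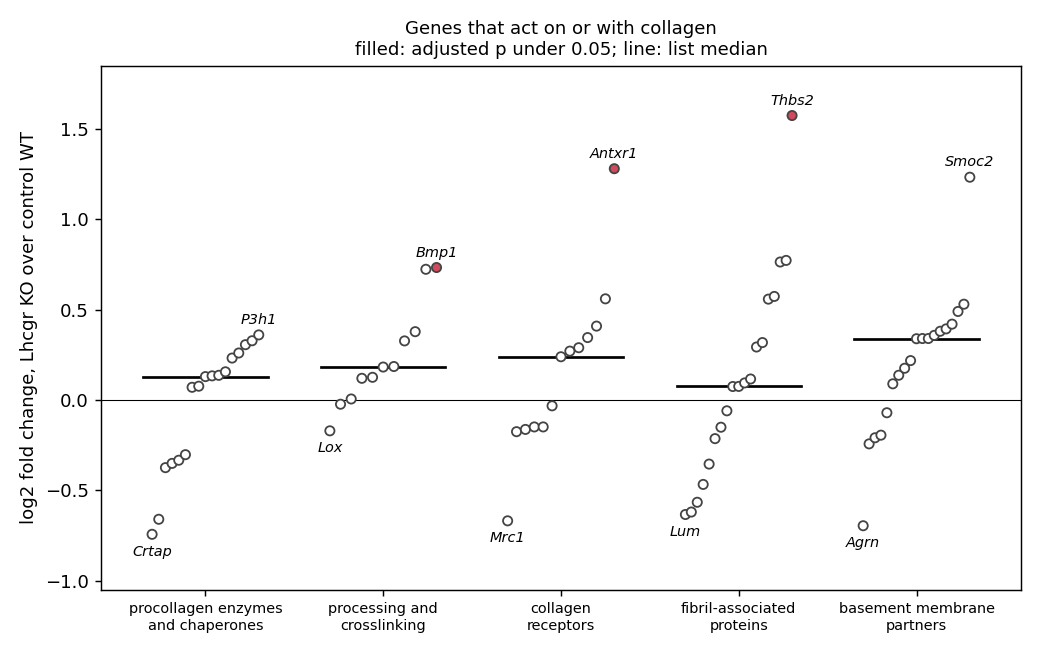
Log2 fold change, Lhcgr KO over control WT, of each measured gene in 5 lists of proteins that act on or with collagen, with a line at each list median and filled points where the adjusted p is below 0.05. The filled points are Bmp1, Antxr1 and Thbs2, and the list medians run from 0.08 to 0.34.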

How the data were processed

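Biotin-labelled sense cDNA from testis RNA was read on 1-colour Affymetrix arrays, per the labels' protocols. The authors deposited linear intensities, 1 for each probe set on each array. Its summarization and normalization are not stated in the labels or the table, and the submitters' processing notes name the build mm9. The lowest value was just over 16 on every array. How this floor arose is not stated, and its effect on changes of weak genes was not tested. Of 28856 probe sets, 21789 had 1 gene symbol and gave 19938 genes, 1621 had several and 5446 had none listed. Log2 values were fitted with limma 3.58.1 in R 4.3.3 (lmFit, eBayes), with no covariate, two-sided p and Benjamini-Hochberg adjustment over all genes. The prior carried 4.65 degrees of freedom beside 2 residual ones. No detection calls were used.

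Collagen classes, partner lists and markers came from general knowledge, and the members and lists were chosen with earlier results of these data known. Named genes were every collagen past the threshold, a fixed set of 14, the largest changes in each class, the 6 with the highest signal, and the top partner genes of each list. Other members are named to account for them. Alternatives were quantile normalization, median centring, a filter on the lowest 25% of genes, averaging probe sets, other eBayes priors, adding 32 units, a threshold of 0.1, leaving out each array and a replicate block. Partner genes without a single-symbol probe set are not analysed here.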

Additional observations from a re-analysis of the deposited data

How the results depend on the processing

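Col14a1 and Col15a1 were the collagen genes past the test under quantile normalization, median centring, the low-signal filter, averaged probe sets, both other priors, 32 added units and the threshold of 0.1. No collagen gene was called lower under any of the 13 alternatives. Leaving out 1 array gave 0 to 2 collagen genes higher, 2 to 313 of all genes higher and 16 to 726 lower; the group left with 1 array was then assumed to vary like the other. At the threshold of 0.1, 482 genes were higher and 762 lower. The median change over collagens was 0.18 after quantile normalization and 0.17 after median centring, where that over all genes was 0.02 and 0.006. For FACIT genes it was 0.15 after quantile normalization. Without 1 array the medians ran from 0.18 to 0.26 for all collagens, 0.16 to 0.27 for fibrillar, -0.12 to 0.12 for basement membrane, 0.17 to 0.27 for FACIT and 0.18 to 0.32 for other genes. The cause of these movements was not tested. Over 38 named genes and 13 alternatives, 469 values stayed on their side of the threshold, 13 dropped out, 12 came in and 0 reversed. Deviations of replicate 1 from the group means correlated at 0.02 between groups over genes. From 2 arrays in each group it cannot be told whether same-numbered replicates shared anything beyond the number. With the replicate block 2 collagen genes, 173 of all genes were higher and 399 lower.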

Other observations

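Col6a5 and Col6a6 each had a second probe set that was not used in the comparison. The weaker Col6a5 probe set measured 6.37 and 6.37 log2 units in Lhcgr KO against 6.61 and 6.63 in control WT, a change of -0.25 ± 0.11, while the one used had 0.24 ± 0.14. The probe sets of Col6a5 therefore disagreed in direction, and the positive value given for that gene rests on the brighter one. The weaker Col6a6 probe set had a change of 0.32 ± 0.15, in the same direction as the 0.17 ± 0.18 of the one used.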
